A study of Mus musculus with 30 samples.

Results

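Cpt1c, Mcam and Igsf9b are 3 of the 55487 gene identifiers counted in a mouse series on stages of oral carcinogenesis, and they were chosen by their CPM levels per stage, which stood higher in hyperplasia than in the other stages. That choice used their levels by stage, so their differences between stages are given as descriptions without a test. The tested measure is their variation between samples of the same stage, set against the p53 targets Cdkn1a and Trp53inp1.

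The series holds RNA sequencing of 30 samples from male C57BL/6J mice, in 5 pathological stages: 3 samples of normal tissue, 8 of hyperplasia, 7 of dysplasia, 6 of carcinoma in situ (CIS) and 6 of invasive carcinoma. One protocol is given for every sample, normal tissue included: 4NQO, a DNA-damaging carcinogen, at 100 ug/mL in the drinking water for 10 weeks, begun at 6 weeks of age, and whether the animals behind the normal samples drank it is not given. The tissue label of all samples is oral squamous cell carcinoma, also for the normal ones, and nothing in the labels says that samples of a stage came from separate animals, so a p-value here covers sample-to-sample spread, which may be technical. The code letter of a sample follows its stage (D normal, A hyperplasia, B dysplasia, C both carcinomas), so a batch tied to the letter cannot be told apart from stage except between the carcinoma stages. Total counts ran from 17725604 to 28023098 per sample.

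CPT1C belongs to the carnitine palmitoyltransferase family, whose relatives CPT1A and CPT1B load long-chain fatty acids onto carnitine for import into mitochondria. CPT1C itself is best known from neurons, sits in the endoplasmic reticulum, has little of that enzymatic activity and binds malonyl-CoA. MCAM (CD146) is an adhesion molecule of the immunoglobulin superfamily found on endothelial cells, pericytes and smooth muscle and on melanoma cells, with laminin alpha-4 and galectins among its ligands. IGSF9B is an immunoglobulin superfamily adhesion molecule of inhibitory synapses. Cdkn1a encodes the cell cycle inhibitor p21 and Trp53inp1 a stress protein of cell death and autophagy, and both are targets of the transcription factor p53, which DNA damage activates.

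In the GENCODE M21 annotation of GRCm38, Cpt1c (ENSMUSG00000007783.10) lies on the minus strand of chromosome 7 from 44959372 to 44974851, with 7 transcripts, 4 of them coding. Mcam (ENSMUSG00000032135.15) lies on the plus strand of chromosome 9 from 44134469 to 44142727, with 6 transcripts, 4 of them coding. Igsf9b (ENSMUSG00000034275.18) lies on the same strand and chromosome from 27299204 to 27357546, 16.8 Mb from Mcam, with 4 transcripts, 3 of them coding. Gm10687, an antisense gene that overlaps Mcam, had 10 to 43 counts per sample, and 6530437J22Rik, antisense to Cpt1c, had 0 to 2. Mcam itself had 397 to 1628 counts and Cpt1c 79 to 659. Whether counting used the strand is not given in the sources used here. Without it, the antisense counts cannot show how many antisense reads were counted for Mcam or Cpt1c.

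The 250 bases before the start of Cpt1c are shown as the stretch in which motifs were searched. The windows come from RefSeq (GRCm38.p6), in which 2 of the 3 genes had an entry, Cpt1c and Mcam, and the sequence reads 5′ to 3′ on the gene's strand. Capitals mark the match, on either strand, to GGGCGG (an SP1 box).
Cpt1c, chr7:44974852-44975101, minus strand: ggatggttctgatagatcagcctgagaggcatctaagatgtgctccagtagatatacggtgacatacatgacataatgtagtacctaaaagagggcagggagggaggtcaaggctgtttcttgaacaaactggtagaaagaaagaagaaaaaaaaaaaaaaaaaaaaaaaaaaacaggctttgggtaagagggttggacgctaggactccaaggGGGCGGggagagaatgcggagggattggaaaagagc
The Cpt1c window was 44.0% G or C with 4 CG pairs, against a median of 52.4% over the 32851 windows in the table, and GGGCGG, which 32.7% of all windows held, stood once in it. The Mcam window, chr9:44134408-44134657, ends at the RefSeq start, which lies inside the gene as GENCODE draws it, so that 189 of its 250 bases are within Mcam, and it is not printed. It was 73.6% G or C with 25 CG pairs and held GGGCGG 5 times and TGACGTCA (a cAMP response element), held by 1.55% of all windows, once. The p53 half-site, which 7.13% of all windows held, matched in neither, while of the 2 Cdkn1a windows in the table one held 2 matches and the other 0. CACGTG (in 6.02% of all windows), TATAAA (12.4%) and TGANTCA (6.75%) matched in none of these windows, and no 2 matches overlapped.

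All 8 hyperplasia samples lay above all 22 samples of the other stages for each of the 3 genes. Levels are given in CPM, counts scaled to a common library size with TMM factors. Of the 17638 genes with enough counts to be tested, 36 showed this separation, 0.204% of genes. Against single stages, every hyperplasia sample lay above every normal sample in 9.13% of genes, above every dysplasia sample in 0.862%, above every CIS sample in 1.51% and above every invasive carcinoma sample in 3.96%. By edgeR's test 14.3% of genes were called between hyperplasia and normal tissue, and 5.18%, 19% and 38.4% between hyperplasia and dysplasia, CIS and invasive carcinoma. Since the genes were chosen for this pattern, nothing is read from these shares.

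Cpt1c stood at 4.99, 4.45 and 5.14 CPM in the normal samples. In hyperplasia it ran from 18.5 through a median of 22.05 to 26.2 CPM. The lowest, median and highest dysplasia values were 6.94, 7.52 and 8.49 CPM, those of CIS 6.04, 7.79 and 8.84 CPM, and those of invasive carcinoma 5.06, 7.18 and 9.60 CPM. The lowest hyperplasia sample was thus well above the highest sample of any other stage, an invasive carcinoma, while dysplasia and both carcinomas overlapped and lay, except for the lowest invasive carcinoma sample, above the normal samples. The stage means were 4.86 ± 0.364 (SD, n = 3), 21.98 ± 2.60 (n = 8), 7.59 ± 0.599 (n = 7), 7.69 ± 0.981 (n = 6) and 7.28 ± 1.56 CPM (n = 6). Hyperplasia was 4.52-fold above normal, a log2 fold change of 2.18 ± 0.15 (standard error), and the later stages were lower than hyperplasia by log2 values of -1.53 ± 0.10, -1.51 ± 0.11 and -1.59 ± 0.11 in turn.

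Mcam was the most abundant of the 3. Normal samples held 21.5, 28.5 and 24.6 CPM, and hyperplasia samples ran from 55.6 through a median of 61.4 to 68.4 CPM. Dysplasia ran from 23.0 through 25.3 to 37.6 CPM, CIS from 26.3 through 29.9 to 35.1 CPM and invasive carcinoma from 22.5 through 28.8 to 35.7 CPM. The 4 stages other than hyperplasia overlapped, and the dysplasia sample at 37.6 CPM, coded B01, was the highest of them. Means were 24.9 ± 3.50 (SD, n = 3), 61.9 ± 3.70 (n = 8), 27.0 ± 4.83 (n = 7), 30.2 ± 4.11 (n = 6) and 29.3 ± 4.45 CPM (n = 6). Hyperplasia was 2.49-fold above normal (log2 1.32 ± 0.13, standard error), and the later stages were lower than hyperplasia by log2 values of -1.20 ± 0.10, -1.04 ± 0.10 and -1.08 ± 0.10.

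Igsf9b was the least abundant, with 25 to 288 counts per sample. Normal samples held 1.35, 3.04 and 2.99 CPM. Hyperplasia ran from 8.24 through a median of 10.7 to 12.5 CPM, dysplasia from 2.65 through 3.57 to 3.84 CPM, CIS from 1.10 through 2.93 to 4.02 CPM and invasive carcinoma from 2.07 through 3.20 to 4.97 CPM. Outside hyperplasia the stages overlapped, and the lowest values, in the normal sample D01 and the CIS sample C02, rested on 25 and 26 counts. Means were 2.46 ± 0.959 (SD, n = 3), 10.5 ± 1.44 (n = 8), 3.40 ± 0.481 (n = 7), 2.89 ± 1.01 (n = 6) and 3.46 ± 1.02 CPM (n = 6). Hyperplasia was 4.25-fold above normal (log2 2.09 ± 0.29, standard error), and the later stages were lower by log2 values of -1.63 ± 0.20, -1.86 ± 0.21 and -1.60 ± 0.21.

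**Figure D1:**
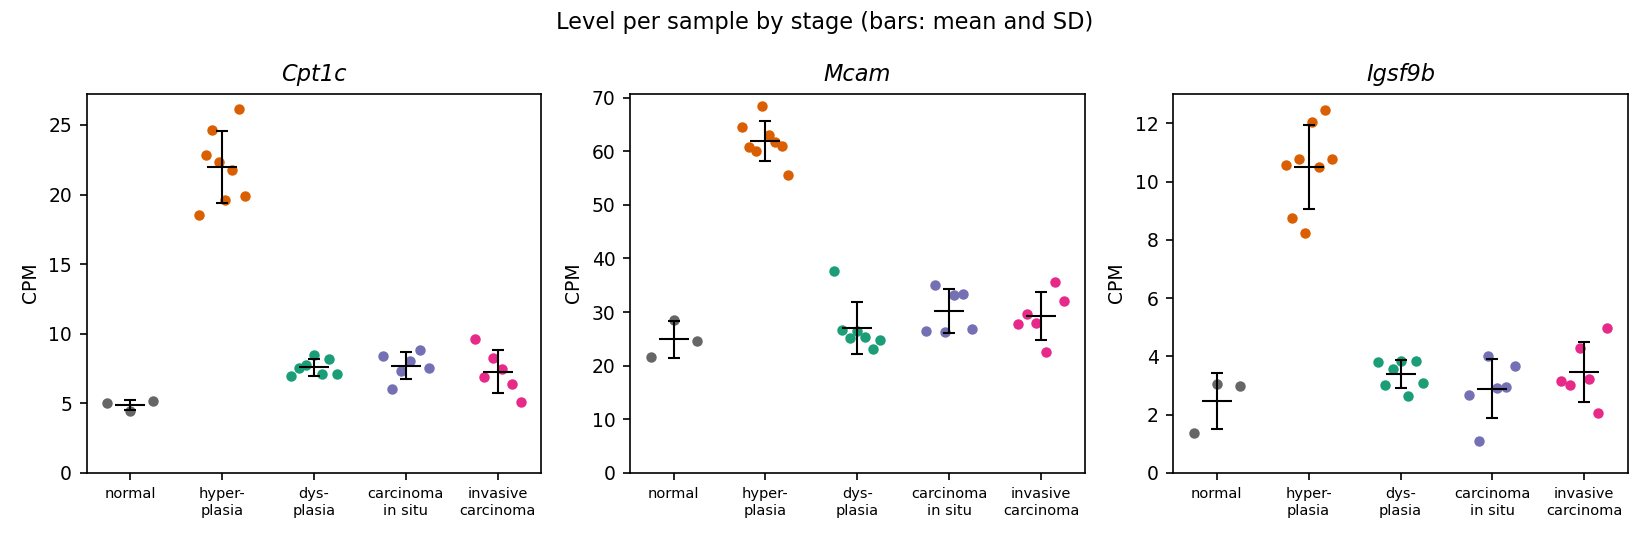
Level of Cpt1c, Mcam and Igsf9b in CPM (vertical axes, from 0) for each sample by stage, with bars for the mean and SD. The 8 hyperplasia samples lie above every other sample in each panel, by the widest margin relative to the other stages in Cpt1c (18.5 CPM and more, against 9.60 and less).

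The order of the stage levels was hyperplasia first for all 3 genes. Behind it, Cpt1c ran CIS, dysplasia, invasive carcinoma and normal, Mcam ran CIS, invasive carcinoma, dysplasia and normal, and Igsf9b ran invasive carcinoma, dysplasia, CIS and normal. In these orders neighbouring stages after hyperplasia differed by less than the larger of their SDs, except normal below invasive carcinoma in Cpt1c. Per kilobase of exon, the mean level in hyperplasia was 18.5 CPM for Mcam, 3.92 for Cpt1c and 0.630 for Igsf9b, against 116 for Cdkn1a and 14.01 for Trp53inp1.

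Among the later stages the 3 genes differed little, and as the choice compared all 5 stages these values are a description too. From dysplasia to CIS, where 5.47% of all genes were called, the log2 change was 0.02 ± 0.11 (standard error) for Cpt1c, 0.16 ± 0.10 for Mcam and -0.23 ± 0.21 for Igsf9b. From CIS to invasive carcinoma the changes were -0.08 ± 0.11, -0.05 ± 0.11 and 0.26 ± 0.22. There 0% of genes were called by edgeR and none by DESeq2 or limma-voom, while 1259 genes had an unadjusted p under 0.05. From dysplasia to invasive carcinoma, with 19.6% of genes called, the changes were -0.06 ± 0.11, 0.12 ± 0.10 and 0.02 ± 0.21. The widest of these differences, 0.26 for Igsf9b, stands beside log2 differences of 1.04 and more between hyperplasia and the later stages.

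The 36 genes with every hyperplasia sample above all others gave the setting of the pattern. Their log2 ratio of the hyperplasia mean to the highest other stage mean ran from 0.19 to 3.89. Igsf9b was the 13th of the 36 by this ratio (1.60), Cpt1c the 14th (1.52) and Mcam the 17th (1.04), and 18 of the 36 exceeded a 2-fold ratio. Only 5 genes, 0.0283%, had every hyperplasia sample below all others. Of the 32 genes of a p53 target list, 1 was among the 36, Psrc1, which encodes a protein of the mitotic spindle. Also among them, and named here after their values were seen, were the DNA repair gene Mgmt, the translesion polymerase gene Rev1 and Gria3, a subunit of AMPA-type glutamate receptors, the channels whose trafficking CPT1C is known to affect. Gria3 averaged 6.96 CPM in hyperplasia, 1.82 in normal tissue and 1.44 in dysplasia. Leaving out 1 sample at a time, 36 to 65 genes were separated, the most without hyperplasia sample A05, followed by 58 without dysplasia sample B02, and Cpt1c, Mcam and Igsf9b were always among them.

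**Figure D2:**
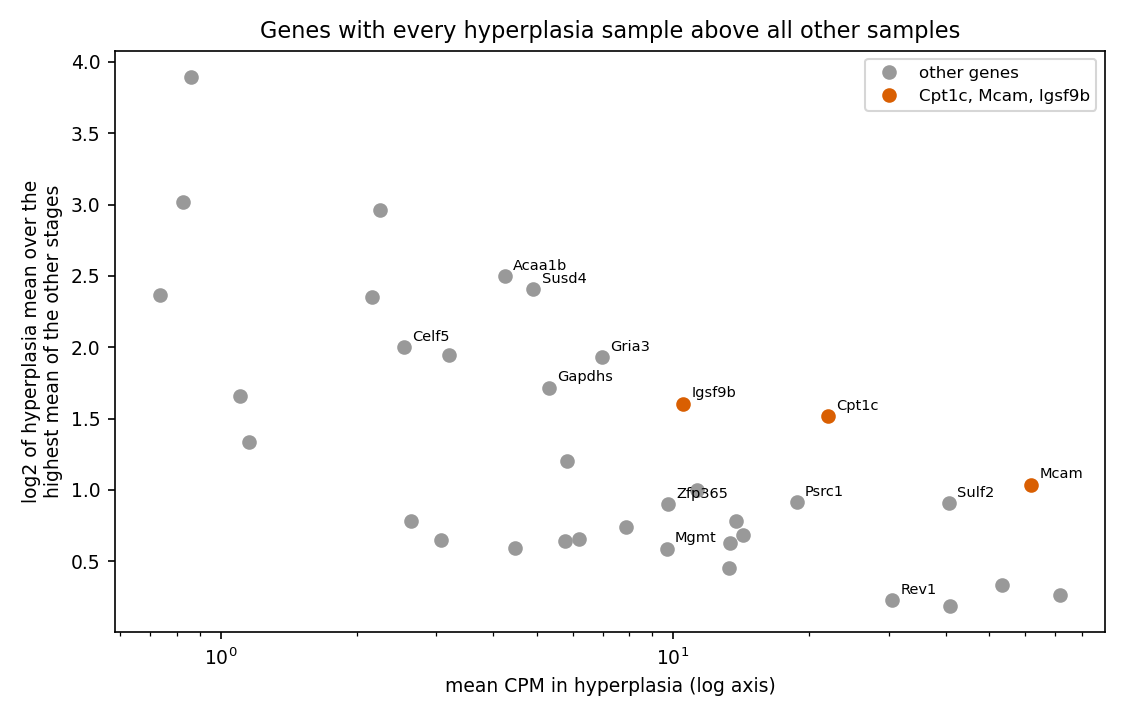
The 36 genes whose 8 hyperplasia samples all exceed the other 22 samples, with the mean CPM in hyperplasia on a log axis and the log2 ratio of that mean to the highest mean of another stage on the vertical axis. Mcam, Cpt1c and Igsf9b are among the more abundant genes with a ratio above 1.

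Genes with the most similar level over all 30 samples were ranked by the Pearson correlation of log2 CPM among the 13551 genes averaging 1 CPM or more. This likeness carries the stage means by which the genes were chosen and is a description. Closest to Cpt1c were Acaa1b, a peroxisomal thiolase of fatty acid breakdown (r = 0.945), Psrc1 (0.931), the glycolytic enzyme gene Gapdhs (0.920), the complement regulator gene Susd4 (0.909) and the zinc finger gene Zfp365 (0.894). Closest to Mcam were Susd4 (0.898), Cpt1c (0.880), the heparan sulfate sulfatase gene Sulf2 (0.866), Acaa1b (0.864) and Lgals9, which encodes galectin-9 (0.844). Closest to Igsf9b were Susd4 (0.880), Cpt1c (0.877), the translesion DNA polymerase gene Polk (0.867), the RNA-binding protein gene Celf5 (0.849) and Psrc1 (0.846). The lists share genes, and Susd4 stood in all 3. Acaa1b averaged 0.237 CPM in normal tissue, 4.25 in hyperplasia and 0.464 in dysplasia. Susd4 had 0.619, 4.92 and 0.928 CPM in the same stages, and Sulf2 had 21.7, 40.7 and 20.0 CPM.

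With each stage centred on its own mean the most similar genes were others. For Cpt1c they were Acbd4 (r = 0.763), Nudt17 (0.739), Cbarp (0.735), Armc5 (0.730) and Ccdc9 (0.711). For Mcam they were the matrix protein gene Sparc (0.797), Pdlim7 (0.754), Clic4 (0.749), Rhoc (0.748) and Anxa3 (0.737), and for Igsf9b Mrtfa (0.660), Ror2 (0.658), Gramd4 (0.635), Zfp2 (0.635) and Map3k4 (0.622). None of these was among the genes most similar over all samples. The 3 genes themselves, with r of 0.811 to 0.880 with each other over all samples, had stage-centred r of -0.359 (Cpt1c with Mcam), 0.149 (Cpt1c with Igsf9b) and -0.149 (Mcam with Igsf9b).

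The closest genes on either side that passed the expression filter were not called between hyperplasia and normal tissue. Prmt1, 1138 bases beyond Cpt1c, averaged 73.3 CPM in hyperplasia and 74.0 in normal tissue (log2 -0.01 ± 0.11, adjusted p = 0.953), and Ap2a1 on the other side 82.6 and 93.1 (adjusted p = 0.0603). Cbl, 249 bases beyond Mcam, averaged 58.0 and 54.8 CPM (adjusted p = 0.617), and Gm26737 on the other side 0.685 and 0.669. Jam3 and Opcml, the neighbours of Igsf9b at 143783 and 433229 bases, had log2 changes of -0.26 ± 0.20 and -0.24 ± 0.29 (adjusted p = 0.411 and 0.625). Of these 6 neighbours none was called between hyperplasia and normal tissue by edgeR, where 14.3% of genes were.

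Of 6 close relatives of the 3 genes, none was called higher in hyperplasia than in normal tissue by edgeR, where 8.22% of all genes were. For so few genes that count is near the share over all genes. Between hyperplasia and normal tissue Cpt1a, the widely expressed family member, had a log2 change of -0.28 ± 0.12 (adjusted p = 0.113), the muscle form Cpt1b 0.27 ± 0.30 (adjusted p = 0.601), and Cpt2, which completes the transfer inside mitochondria, fell by 0.42 ± 0.13 (adjusted p = 0.0346). Alcam and Bcam, adhesion molecules related to Mcam, had changes of 0.01 ± 0.18 and -0.22 ± 0.09 (adjusted p = 0.977 and 0.0971). Igsf9, the close relative of Igsf9b, had 0.23 ± 0.21 (adjusted p = 0.514), and it rose from hyperplasia to CIS by 0.60 ± 0.17 (adjusted p = 0.0130) and to invasive carcinoma by 0.56 ± 0.17 (adjusted p = 0.0093), while Igsf9b was lower there. These p-values are from edgeR with Benjamini-Hochberg adjustment.

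Of a list of 23 genes of the carnitine shuttle and fatty acid oxidation, none rose and 17 fell in hyperplasia against normal tissue, where 6.07% of all genes were called lower, with a median log2 change of -0.47 against 0.01 over all genes tested. Slc25a20, the carnitine carrier, fell by 0.71 ± 0.15 (adjusted p = 0.00165), Mlycd, which degrades malonyl-CoA, by 0.90 ± 0.22, Acacb, which makes it, by 0.82 ± 0.21, and Etfdh, which passes electrons on, by 0.60 ± 0.15. Without normal sample D02 5 of the 23 fell. Of 14 skeletal muscle markers, Myh1 and Mb fell and Actn3 rose in the same comparison, and the median log2 change of the 14 was -0.41. Their summed level was 50719 to 69402 CPM in normal and 31672 to 57456 CPM in hyperplasia samples. With the muscle score as a covariate 17 of the 23 fatty acid oxidation genes fell. The part of muscle content in the lower level of these genes was not tested further. From hyperplasia to dysplasia, where Cpt1c was lower, 0 of the 23 were called in either direction by edgeR, against 5.18% of all genes, and 16 fell in invasive carcinoma against hyperplasia, where 19.2% of all genes were called lower.

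Partners were described by lists as well. Of 6 genes tied to CPT1C in neurons, 4 could be tested and none was called between hyperplasia and normal tissue by edgeR, with log2 changes of -0.08 ± 0.07 for Sacm1l and 0.13 ± 0.43 for the AMPA receptor subunit Gria2. The list did not hold Gria3, the subunit described above that was higher in hyperplasia. Of 11 ligand and signalling genes of MCAM, S100a8 and S100a9, alarmins of neutrophils and inflamed epithelium, rose in hyperplasia by 5.85 ± 1.43 and 6.08 ± 1.505, and the other 9 were not called. S100a8 was spread widely in hyperplasia, from 5.53 through a median of 17.5 to 553 CPM, and averaged 880 CPM in CIS. Of 15 immunoglobulin adhesion genes L1cam rose, by 0.46 ± 0.13 (adjusted p = 0.0201). Of 15 genes of inhibitory synapses, 9 could be tested and Nrxn2, a presynaptic adhesion gene, rose by 1.11 ± 0.32 (adjusted p = 0.0204), from 3.19 ± 0.665 CPM (SD, n = 3) in normal tissue to 6.89 ± 1.40 (n = 8). Against the background of 14.3% called, these counts of 0 of 4, 2 of 11, 1 of 15 and 1 of 9 are close to it.

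Cdkn1a and Trp53inp1 were the p53 targets set beside the 3 genes. They were chosen with earlier results of these data known, so their p-values between stages are a description and not an independent test. Cdkn1a stood at 312 to 372 CPM in normal tissue, from 316 through a median of 401 to 509 CPM in hyperplasia, and from 215 through 310 to 344 CPM in dysplasia, so that hyperplasia overlapped both. Its log2 change was 0.23 ± 0.14 from normal to hyperplasia (edgeR adjusted p = 0.284), and it fell by 0.45 ± 0.11 to dysplasia (adjusted p = 0.0123), by 0.62 ± 0.11 to CIS (adjusted p = 5.0e-04) and by 0.59 ± 0.11 to invasive carcinoma (adjusted p = 2.8e-04), always against hyperplasia. With the endothelial score as a covariate the last was -0.61 (edgeR adjusted p = 0.0752). Trp53inp1 had 40.5 to 53.3 CPM in normal tissue, 76.3 through a median of 91.2 to 111 CPM in hyperplasia and 35.8 through 47.9 to 55.7 CPM in dysplasia, so that hyperplasia overlapped neither. It rose by 0.98 ± 0.18 from normal to hyperplasia (adjusted p = 5.1e-04) and fell by 0.98 ± 0.13 to dysplasia (adjusted p = 2.4e-05), by 0.69 ± 0.14 to CIS (adjusted p = 9.7e-04) and by 0.72 ± 0.14 to invasive carcinoma (adjusted p = 2.6e-04). Trp53 itself rose by 0.39 ± 0.09 in hyperplasia (adjusted p = 0.00543) and was not lower in later stages, with 55.7 CPM in dysplasia against 52.1 in hyperplasia.

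**Figure D3:**
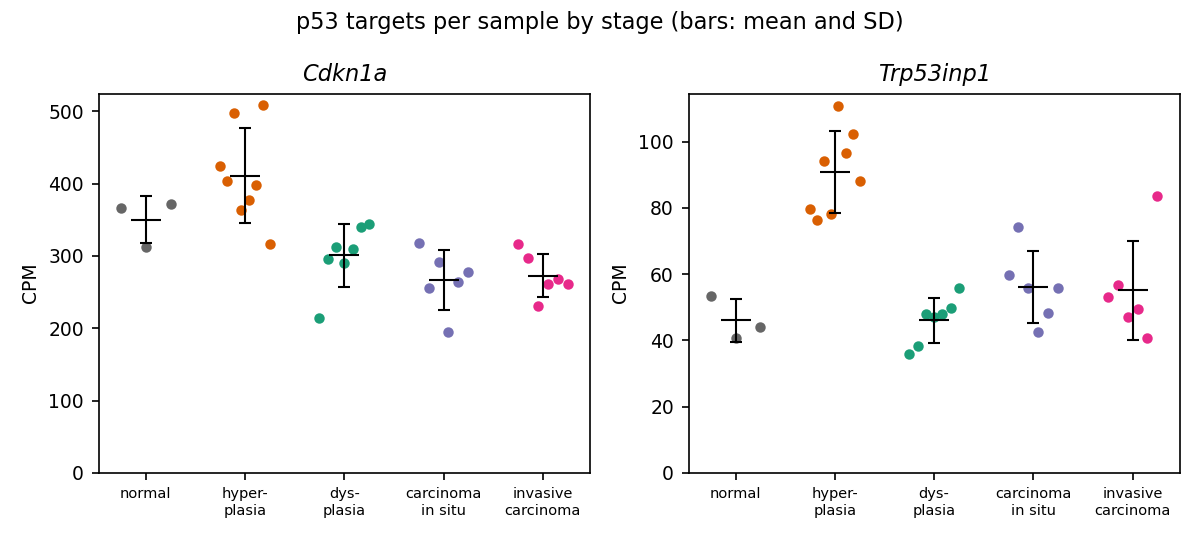
Level of Cdkn1a and Trp53inp1 in CPM (vertical axes, from 0) for each sample by stage, with bars for the mean and SD. Hyperplasia overlaps normal tissue for Cdkn1a (316 to 509 against 312 to 372 CPM) and stands apart from it for Trp53inp1 (76.3 CPM and more against 53.3 and less).

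Of the 32 p53 target genes, 16 rose and 2 fell in hyperplasia against normal tissue, where 8.22% of all genes were called higher, with a median log2 change of 0.36. The list is not independent of earlier results on these samples. Pmaip1, a BH3-only cell death gene, rose by 3.42 ± 0.45, Tnfrsf10b, a death receptor, by 1.39 ± 0.21, Psrc1 by 1.34 ± 0.16 and Gtse1, a cell cycle gene, by 0.92 ± 0.15, while Phlda3 fell by 0.53 ± 0.10 and Sesn1 by 0.55 ± 0.12 and the p53 ubiquitin ligase gene Mdm2 had 0.10 ± 0.06 (adjusted p = 0.279). From hyperplasia to dysplasia, with 2.19% of genes called lower and 2.99% higher, 14 of the 32 fell and none rose, with a median of -0.35. Against hyperplasia 14 fell and 1 rose in CIS and 12 fell and 2 rose in invasive carcinoma, where 8.39% and 19.2% of genes were called lower and 10.6% and 19.1% higher. These comparisons share the hyperplasia samples. Against normal tissue 7, 12 and 13 of the 32 were higher and 5, 7 and 7 lower in dysplasia, CIS and invasive carcinoma. In those comparisons 4540, 6630 and 8127 of the 17638 genes were called in either direction. The squamous epithelial markers Sfn and Krt14, 2 of 10, rose in hyperplasia too, by 0.57 ± 0.19 and 0.84 ± 0.28, and their part in the change of the p53 list was not tested.

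**Figure D4:**
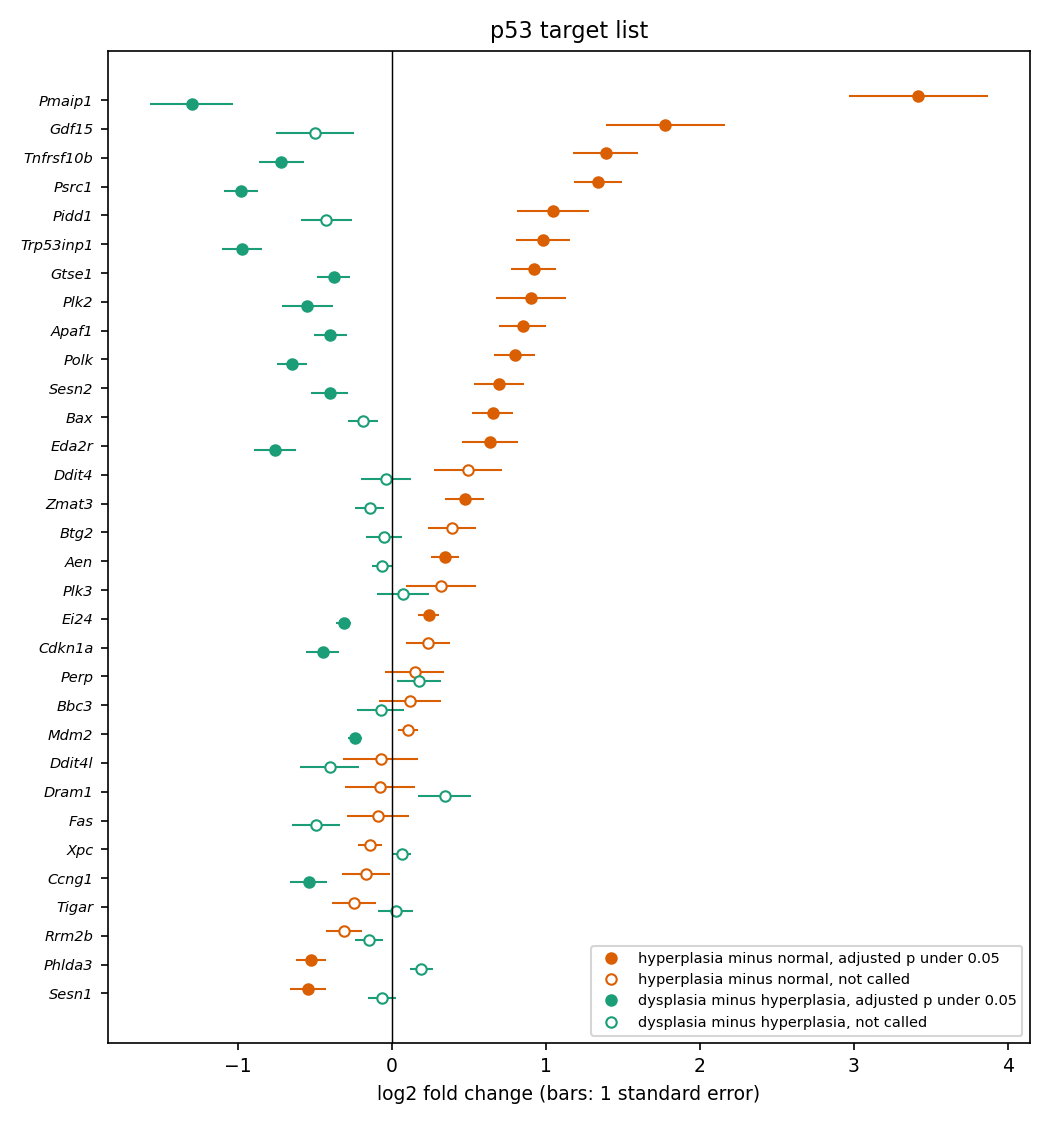
Log2 fold change with 1 standard error of the 32 p53 target genes (rows), from normal to hyperplasia and from hyperplasia to dysplasia, with filled points for an adjusted p under 0.05. Filled points number 16 higher and 2 lower in the first comparison and 14 lower in the second.

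Whether samples with more Cdkn1a or Trp53inp1 also held more of the 3 genes was tested within stages, where the stage means play no part. In all, 50 relations of log2 CPM were computed, over 10 pairs of genes, in each stage with at least 6 samples and over all 30 samples centred on their stage means. None had an adjusted p under 0.05 (Benjamini-Hochberg over the 50) in the permutation tests, and 6 had an unadjusted two-sided p under 0.05.

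In hyperplasia, Cpt1c and Cdkn1a had r = 0.669 (exact permutation p = 0.0671, adjusted 0.394, n = 8; rho = 0.524, exact p = 0.197, adjusted 0.702). The samples with the most Cdkn1a, A07 and A03 at 509 and 498 CPM, also held the most Cpt1c, at 26.2 and 24.7 CPM. Without A07 and A08, the 2 samples farthest from the median of Cdkn1a, r was 0.406. Cpt1c and Trp53inp1 had r = 0.158 (exact permutation p = 0.704, adjusted 0.925). Over all stages the centred r of Cpt1c was 0.318 with Cdkn1a (permutation p = 0.0866, adjusted 0.394; rho = 0.308) and -0.324 with Trp53inp1 (p = 0.173 by permutation, adjusted 0.576; rho = -0.065). The latter was 0.0995 without invasive carcinoma sample C12 and CIS sample C02, so its sign rested on those samples. In dysplasia, CIS and invasive carcinoma the r of Cpt1c with Trp53inp1 was 0.242, -0.756 and -0.561 (exact permutation p = 0.584, 0.0833 and 0.233). Without C02 the CIS value was -0.312, and without C12 the invasive carcinoma value was 0.412. With Cdkn1a the r in these stages was 0.334, 0.0212 and 0.273 (exact permutation p = 0.517, 0.972 and 0.625). Relations of Cpt1c with p53 targets that hold within a stage were thus not detected at this number of samples.

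Igsf9b and Trp53inp1 had r = 0.847 in hyperplasia (exact permutation p = 0.00707, adjusted 0.118, n = 8; rho = 0.786, exact p = 0.0279, adjusted 0.349). The 2 samples lowest in Igsf9b, A04 and A02 at 8.24 and 8.76 CPM, were at 78.0 and 76.3 CPM of Trp53inp1, and the 2 highest, A07 and A05 at 12.5 and 12.03 CPM, at 102 and 111 CPM. Without A05 and A02, the 2 samples farthest from the median of Trp53inp1, r was 0.771, and leaving out 1 sample gave 0.798 to 0.927. Some marker scores, named after their values were seen, moved along in these 8 samples. The endothelial score had r of -0.867 with Igsf9b and -0.903 with Trp53inp1. The Schwann cell score had -0.891 and -0.968, and the squamous epithelial score 0.698 and 0.793. With the endothelial score removed from both genes r was 0.298 (exact permutation, adjusted p = 0.714). That was the lowest r over 8 alternatives other than leaving out samples, and the highest was 0.852. In dysplasia the r of Igsf9b and Trp53inp1 was -0.163, in CIS -0.659 and in invasive carcinoma 0.734 (exact permutation p = 0.722, 0.182 and 0.106), and the centred r over all samples was -0.0312 (permutation p = 0.888). Igsf9b and Cdkn1a had r = 0.352 in hyperplasia (exact permutation p = 0.397, adjusted 0.826) and -0.0331 over all stages (permutation p = 0.864).

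Mcam and Cdkn1a went in opposite directions in dysplasia, with r = -0.976 (exact permutation p = 0.00139, adjusted 0.0694, n = 7; rho = -0.929, exact p = 0.00675, adjusted 0.112). Sample B01 was highest in Mcam, at 37.6 CPM, and lowest in Cdkn1a, at 215 CPM, and without it r was -0.860 (exact permutation, adjusted p = 0.370). The adjusted p was 0.0298 with RLE in place of TMM factors and 0.0298 with the salivary gland score removed. Some marker scores, again named after their values were seen, moved along in these 7 samples. The squamous epithelial score had r of -0.979 with Mcam and 0.974 with Cdkn1a, and the pericyte score 0.947 and -0.877. With the squamous score removed from both, an alternative chosen after seeing the data, r was -0.491 (exact permutation, adjusted p = 0.560). Mcam and Trp53inp1 had r = -0.799 in dysplasia (exact permutation p = 0.00972, adjusted 0.122), -0.616 without B01 and 0.414 with the squamous score removed. In hyperplasia the r of Mcam was 0.114 with Cdkn1a and -0.235 with Trp53inp1 (exact permutation p = 0.807 and 0.592, adjusted 0.965 and 0.925). Over all stages, centred, it was -0.490 with Cdkn1a (permutation p = 0.0122, adjusted 0.122; rho = -0.430, adjusted 0.378), -0.270 without B01 and CIS sample C07, and -0.272 with Trp53inp1 (permutation p = 0.208, adjusted 0.579).

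Among themselves the 3 genes had r of -0.0673 (Cpt1c with Mcam), 0.0227 (Cpt1c with Igsf9b) and -0.408 (Mcam with Igsf9b) within hyperplasia (exact permutation p = 0.884, 0.958 and 0.317). Cdkn1a and Trp53inp1 had r = 0.427 over all stages, centred (permutation p = 0.0238, adjusted 0.198), and 0.856 in dysplasia (exact permutation p = 0.00337, adjusted 0.0843).

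**Figure D5:**
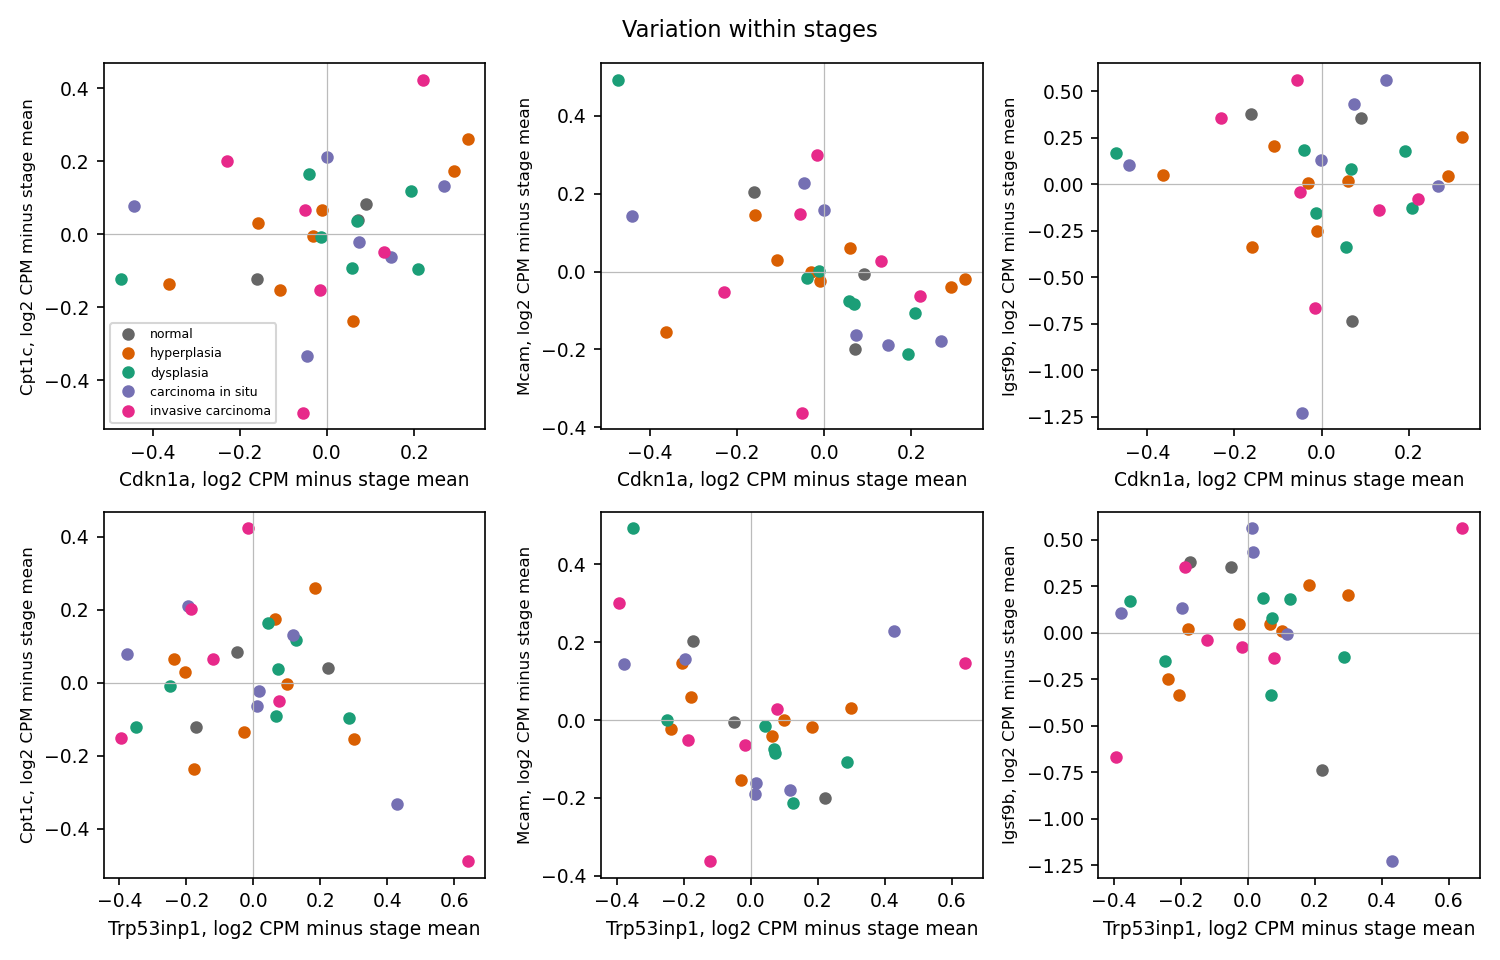
Log2 CPM minus the stage mean for Cpt1c, Mcam and Igsf9b (vertical axes) against Cdkn1a (upper row) and Trp53inp1 (lower row), 1 point per sample coloured by stage. No panel shows a relation that passed adjustment, and the dysplasia sample B01 is the point at the upper left of the Mcam and Cdkn1a panel.

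Markers of the cell types known to express these genes were followed by stage, as fewer cells of a type and less RNA per cell cannot be told apart in bulk tissue. Of 14 endothelial markers none was called between hyperplasia and normal tissue by edgeR, against 14.3% of all genes. Their summed level was 664 to 733 CPM in normal samples, 497 to 771 in hyperplasia and 433 to 637 in dysplasia. Mcam was more than 2-fold higher in hyperplasia than in both normal tissue and dysplasia, and the part of these cells in it was not tested. From hyperplasia 1 of the 14 fell in dysplasia, 11 in CIS and 13 in invasive carcinoma, where 2.19%, 8.39% and 19.2% of all genes were called lower. Of 12 pericyte and smooth muscle markers Notch3 rose in hyperplasia, where 8.22% of all genes were called higher. None of the 12 was called from hyperplasia to dysplasia, against 5.18% of all genes. Sums were 659 to 715 CPM in normal, 551 to 778 in hyperplasia and 464 to 899 in dysplasia samples. Of 7 melanocyte markers 4 could be tested and none was called between hyperplasia and normal tissue, against 14.3% of all genes. Their sums were 19.8 to 21.9 CPM in normal and 14.8 to 35.5 in hyperplasia samples, and Tyr was at 0 counts in every sample. Mcam had stage-centred r of 0.0821 with the endothelial score and 0.273 with the pericyte score over 30 samples.

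For the genes best known from neurons, 5 of 9 neuronal markers could be tested. Uchl1 fell in hyperplasia by 0.78 ± 0.20 (edgeR adjusted p = 0.00944), where 6.07% of all genes were called lower. Sums of these markers were 40.3 to 48.3 CPM in normal and 44.3 to 61.5 in hyperplasia samples. Against hyperplasia Stmn2 fell in dysplasia, CIS and invasive carcinoma, where 2.19%, 8.39% and 19.2% of all genes were called lower. Snap25 also fell in invasive carcinoma, and Nefl rose in CIS, where 10.6% were called higher. None of 9 Schwann cell markers was called between hyperplasia and normal tissue, against 14.3% of all genes, and 5 fell from hyperplasia to dysplasia, against 2.19%, with sums of 389 to 613 and 260 to 430 CPM. The part of these cells in the lower Cpt1c and Igsf9b in dysplasia was not tested. Of 10 T cell markers 5 rose in hyperplasia, where 8.22% of all genes were called higher, among them Lck by 1.86 ± 0.47. Of 10 salivary gland markers tested none was called between hyperplasia and normal tissue, against 14.3% of all genes. Sums of the 11 listed were 1.91 to 4801 CPM in normal and 1.23 to 15792 in hyperplasia samples. With so wide a spread, the lack of calls does not show that salivary content was even. Squamous markers, which define the labelled tissue, were abundant in every sample, with sums of 36964 to 64736 CPM.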

How the data were processed

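RNA was made into libraries with a stranded mRNA kit per the labels, and cutadapt 2.4, STAR 2.7.2a and GRCm38 are named in the submitters' processing notes; the counting tool, strand setting and annotation release are not given in the sources used here. The authors deposited raw counts per Ensembl gene in 1 table of 30 sample columns. Of 55487 identifiers 55227 (99.53%) matched GENCODE M21 for symbols and positions.

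edgeR 4.0.16 (R 4.3.3; TMM factors 0.892 to 1.057, default expression filter, robust quasi-likelihood fit, 1 mean per stage over all 30 samples, common dispersion 0.0576) gave log2 changes and F statistics. Standard errors were derived from these, as the absolute log2 change over the square root of F. A gene was called at an adjusted p under 0.05, adjusted over 17638 genes within each of 10 comparisons. Checked on simulated counts of 17638 genes for hyperplasia against normal tissue, it recovered 87.5% of 200 genes changed 4-fold, 68.5% at 2-fold and 36.5% at 1.5-fold. Correlations used log2 CPM with a prior count of 2, all orders of the samples within a stage (exact) or 100000 permutations within stages (all samples). Marker scores average log2 CPM over the tested genes of a list. Python 3.11.15, scipy 1.17.1 and matplotlib 3.10.9 were used for tables and figures.

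The 3 genes, the partner genes and the gene lists (p53 targets, fatty acid oxidation, partners and relatives of the 3 genes, cell type markers) were chosen with earlier results of these data known. A test of the 3 genes among the later stages had been planned; as their choice compared all 5 stages, no p-value is given. Named are, by rule, the 3 genes, Cdkn1a, Trp53inp1 and Trp53, the 5 most similar genes per gene over all and over stage-centred samples, predicted genes left out, relatives, the 4 list genes of smallest adjusted p in hyperplasia against normal tissue, and the nearest tested neighbours. Other names were chosen after their values were seen, or are the members behind a small count.

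Alternatives were RLE factors, no filter, DESeq2 1.42.0, limma-voom (limma 3.58.1), only the groups compared, the replicate number as a block, muscle or endothelial scores as covariates, and leaving out each sample; for correlations also rank correlation, a prior count of 0.5, linear CPM and removal of marker scores, of which the squamous score was added after seeing the data.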

Additional observations from a re-analysis of the deposited data

Results flagged for a closer look

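In 20 sets of samples, 5 genes by 4 stages, 3 held a sample far from the others of its stage by Dixon's criterion, of which chance gives about 1 in 20. Mcam in dysplasia had sample B01 at 37.6 CPM, with a gap of 0.748 of the range of the stage. Cdkn1a in dysplasia had the same sample at 215 CPM, below the others, with a gap of 0.580 of the range. B01 also had a salivary gland score of 7.52 log2 CPM against a mean of 1.34 in dysplasia, a squamous epithelial score of 9.22 against 9.50, and a pericyte and smooth muscle score of 5.36, above the 4.57 of the next sample; their part in its Mcam and Cdkn1a levels was not tested. Trp53inp1 in invasive carcinoma had sample C12 at 83.6 CPM, with a gap of 0.631 of the range, and that sample was also the lowest of its stage in Cpt1c, at 5.06 CPM, and the highest in Igsf9b, at 4.97 CPM.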

How the results depend on the processing

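Over 69 results, the log2 changes of the 3 genes between hyperplasia and the other stages kept their direction under every alternative run; the log2 ranges against normal tissue over the 8 alternatives other than leave-one-out were 2.16 to 2.19 for Cpt1c, 1.29 to 1.40 for Mcam and 1.97 to 2.14 for Igsf9b. The causes of the shifts below were not tested.

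Counts of called genes moved more. For dysplasia against hyperplasia 914 became 473 without the expression filter, 2057 with only the groups compared and 494 with the muscle score as covariate. For carcinoma in situ against hyperplasia 3351 became 1604 with the muscle and 402 with the endothelial score, and for invasive carcinoma 6768 became 1831 and 134. For carcinoma in situ against dysplasia 964 became 327 without the filter, 1473 by DESeq2, 200 with only the groups compared, 2452 with the muscle and 487 with the endothelial score. For invasive carcinoma against dysplasia 3455 became 2161 without the filter and 37 with the endothelial score. Among called genes, the percentage higher went from 57.5 to 46.7 for hyperplasia against normal without normal sample D03, from 57.7 to 44.9 for dysplasia against hyperplasia with the muscle score, and for carcinoma in situ against dysplasia from 54.8 to 44.0 by limma-voom, 32.2 with the endothelial score and 43.4 without sample C02. The endothelial score also took it from 55.9 to 40.05 (carcinoma in situ) and from 49.9 to 35.1 (invasive carcinoma) against hyperplasia and from 56.4 to 24.3 for invasive carcinoma against dysplasia.

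Same-numbered samples of different stages had a median r of 0.0300 in their deviations, with 13 of 31 above 0.1, against 0.0127 for other numbers, so the numbers were not taken to pair samples. With the replicate number as a block, called genes were 1684 for invasive carcinoma against hyperplasia, 282 for carcinoma in situ against dysplasia and 8 for invasive carcinoma against dysplasia. In the same replicate block fits Cpt1c had -0.0346, 0.153 and 0.119 (carcinoma in situ against dysplasia, invasive carcinoma against carcinoma in situ and against dysplasia). Igsf9b had -0.0350 for invasive carcinoma against dysplasia. Centred r with the block was -0.798 for Mcam with Cdkn1a, 0.639 for Cdkn1a with Trp53inp1 and 0.0902 for Mcam with Igsf9b. The block was run for the centred relations only, so its adjustment did not cover the 50 relations. Some replicate numbers, such as that of C09, belong to no other sample, and the block takes up such a sample's deviation in full. Permutation within stages cannot decide there, so no p-value is given for these r.

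Small later-stage changes turned sign. Igsf9b from dysplasia to invasive carcinoma was -0.0315 by limma-voom, -0.00321 with the muscle and -0.141 with the endothelial score, and Cdkn1a from carcinoma in situ to invasive carcinoma was -0.0170 with the muscle score.

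Correlations turned sign as follows. With the muscle score removed, hyperplasia r was -0.227 (Cpt1c, Trp53inp1), 0.209 (Mcam, Trp53inp1), -0.0478 (Igsf9b, Cdkn1a), 0.298 (Cpt1c, Mcam), -0.568 (Cpt1c, Igsf9b) and 0.0256 (Mcam, Igsf9b). With the endothelial score removed the same pairs had -0.590, 0.509, -0.136, 0.170, -0.774 and 0.00377, and with the squamous score removed the first 5 had -0.465, 0.195, -0.0985, 0.195 and -0.538, and Mcam with Trp53inp1 in dysplasia 0.414. With the salivary score removed, hyperplasia r was -0.0107 (Mcam, Cdkn1a), 0.0600 (Mcam, Trp53inp1), 0.0223 (Cpt1c, Mcam) and -0.0443 (Cpt1c, Igsf9b). RLE factors gave 0.0563 (Cpt1c, Mcam, hyperplasia). Spearman's rho was -0.0952 (Mcam, Cdkn1a, hyperplasia) and 0.271 (Igsf9b, Trp53inp1, centred), and linear CPM gave 0.132 and 0.380 for Igsf9b with Cdkn1a and Trp53inp1, centred. Another alternative left out the 2 samples farthest from the median of the second gene named. Centred r was then 0.0995 (Cpt1c, Trp53inp1), 0.0369 (Igsf9b, Cdkn1a), 0.0686 (Igsf9b, Trp53inp1) and -0.0703 (Cpt1c, Igsf9b). Hyperplasia r was -0.658 (Mcam, Cdkn1a) and 0.139 (Mcam, Igsf9b), and invasive carcinoma r was -0.826 (Igsf9b, Trp53inp1).

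Leaving out 1 sample gave these ranges. Called genes were 926 (without normal sample D02) to 2991 for hyperplasia against normal, 507 to 1486 for dysplasia and 1856 to 4919 for carcinoma in situ against hyperplasia, 164 to 2201 for carcinoma in situ and 1570 to 4605 for invasive carcinoma against dysplasia, and 0 to 1 between the carcinomas. Fatty acid oxidation genes that fell numbered 5 to 17, and p53 targets that rose 11 to 16. Log2 changes ran from -0.0220 to 0.0804 (Cpt1c, carcinoma in situ against dysplasia), -0.174 to 0.00580 (Cpt1c), -0.115 to 0.0221 (Mcam), -0.0428 to 0.0903 (Cdkn1a) and -0.183 to 0.0760 (Trp53inp1) between the carcinomas, and -0.154 to 0.0251 (Cpt1c) and -0.108 to 0.136 (Igsf9b) for invasive carcinoma against dysplasia. Hyperplasia r ran from -0.104 to 0.524 (Cpt1c, Trp53inp1), -0.663 to 0.441 (Mcam, Cdkn1a), -0.414 to 0.0825 (Mcam, Trp53inp1), -0.456 to 0.116 (Cpt1c, Mcam), -0.434 to 0.203 (Cpt1c, Igsf9b) and -0.536 to 0.0953 (Mcam, Igsf9b). Centred r ran from -0.0834 to 0.0117 (Igsf9b, Cdkn1a), -0.242 to 0.291 (Igsf9b, Trp53inp1), -0.128 to 0.388 (Cpt1c, Igsf9b) and -0.301 to 0.0313 (Mcam, Igsf9b). Depth limits Igsf9b most, with 25 counts in its lowest sample.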
